A study of Mus musculus with 4 samples.

Results

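The immediate early transcription factors measured here were Jun, Junb, Jund, Fos, Fosb, Egr1, Atf3, Myc, Ier2 and Ier3, taken as every row of the deposited value table whose MG_U74Av2 probe set is annotated to one of these 10 genes. All 10 genes were present, among 8251 genes named on the array, with 15 of the 12488 probe sets in the table. RNA of mouse liver had been hybridised to 4 Affymetrix MG_U74Av2 arrays, 2 of hepatic reductase null mice (replicates 7 and 8) and 2 of control mice (replicates 7 and 8, titled WT). In the mouse line known as hepatic reductase null the deleted gene is Por, the electron donor of microsomal cytochrome P450 enzymes, removed in hepatocytes by Cre under the albumin promoter. The labels state neither this nor the strain, sex and age of the animals. Por was not among the genes read here, so the genotype was not checked against its signal. The labels speak of RNA pooled from 3 animals of a genotype for each experiment, while the control titles name a mouse, so what was on each array, pooled RNA or that of an individual, is not settled by them. Nothing else says that the arrays of a genotype came from separate animals, so the spread between them may be technical.

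Immediate early genes are transcribed within minutes of a stimulus, before new protein is made, through factors already present in the cell. Jun and Fos proteins pair through a leucine zipper to form AP-1, and Atf3, of the same zipper class, pairs with Jun proteins. Egr1 binds DNA through zinc fingers, Myc acts with its partner Max, and Ier2 and Ier3 are small early response proteins. In liver such genes are known to respond to partial hepatectomy, toxic injury, cytokines and handling of the tissue. Whole liver was measured, so more cells of a type and more RNA per cell cannot be told apart.

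Null liver had more Jun, Atf3, Ier3 and Egr1 signal than control liver on both null arrays, while Fos, Ier2 and Junb were high on null replicate 7 only. Jun, the AP-1 subunit that can also pair with itself, was 4.01-fold higher in null liver, and Atf3, a stress-induced repressor, was 2.91-fold higher. Fos, the usual partner of Jun, reached a signal of 260.7 on null replicate 7, against 7.7 on null replicate 8. Jund, the AP-1 subunit found in resting cells, Fosb and Myc did not stand apart from the control signals by the 1.5-fold margin used below. The members were chosen with these signals known, so their values are given as a description without a test.

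RefSeq start regions (GRCm38.p6) were searched for 7 of the 10 genes, all but Egr1, Myc and Ier2. The selection of regions left out the chromosome that carries Egr1, so its absence here is not a failed match. The 250 bases before the start are shown for 3 genes that were higher on both null arrays (Jun, Atf3 and Ier3) and for Fos, which was high on 1, so that genes alike on both null arrays stand beside the gene that differed most between them. Capitals mark matches to the motifs named in the next paragraph, and each sequence runs 5′ to 3′ on the strand of its gene.
Jun, chr4:95052223-95052472, minus strand: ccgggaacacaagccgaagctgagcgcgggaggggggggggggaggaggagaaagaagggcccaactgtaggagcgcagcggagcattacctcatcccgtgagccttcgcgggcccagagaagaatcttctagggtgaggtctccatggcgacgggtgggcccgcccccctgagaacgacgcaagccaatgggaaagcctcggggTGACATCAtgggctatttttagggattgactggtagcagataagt
Atf3, chr1:191183334-191183583, minus strand: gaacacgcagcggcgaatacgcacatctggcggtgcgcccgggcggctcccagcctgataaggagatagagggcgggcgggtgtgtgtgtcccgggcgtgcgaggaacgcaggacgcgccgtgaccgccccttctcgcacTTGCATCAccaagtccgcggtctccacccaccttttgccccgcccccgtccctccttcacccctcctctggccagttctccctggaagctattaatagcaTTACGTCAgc
Ier3, chr17:35821463-35821712, plus strand: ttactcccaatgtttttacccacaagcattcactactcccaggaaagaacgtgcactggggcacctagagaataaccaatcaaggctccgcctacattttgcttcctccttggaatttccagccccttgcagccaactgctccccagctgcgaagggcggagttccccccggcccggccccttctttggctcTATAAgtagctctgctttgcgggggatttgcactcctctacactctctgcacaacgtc
Fos, chr12:85473640-85473889, plus strand: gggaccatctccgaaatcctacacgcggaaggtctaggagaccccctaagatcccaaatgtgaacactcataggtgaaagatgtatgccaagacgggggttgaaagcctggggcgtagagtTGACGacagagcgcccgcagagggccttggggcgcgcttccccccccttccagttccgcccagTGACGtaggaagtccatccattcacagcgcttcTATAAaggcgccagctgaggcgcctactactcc

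The Jun sequence holds TGACATCA, an AP-1-like word, from 45 to 38 bases before the start. It is found in 2.93% of the 32851 start regions of the same length. The Atf3 sequence holds TTACGTCA, a CRE-like word, from 10 to 3 bases before the start (0.447% of start regions), and the reverse complement of TGATGCAA, a C/EBP-ATF word, from 110 to 103 bases before it (0.791%). Fos holds the short CRE core TGACG at 129 and at 66 bases before the start, a core found in 17.8% of start regions and contained, in reverse complement, in the CRE-like word of Atf3. The TATA core TATAA, searched on the strand of the gene only, lies 33 bases before the start of Fos and 58 before that of Ier3 (16% of start regions). No match to TGACTCA (the AP-1 site, 4.46% of start regions), TGACGTCA (the CRE, 1.55%), GCGTGGGCG (an EGR1 site, 0.536%), GCGGGGGCG (a variant of it, 2.57%), CACGTG (the E-box, 6.02%) or the CArG box bound by SRF (1.47%) lies in these 4 windows on either strand. Among the searched windows not shown, that of Fosb holds GCGGGGGCG from 50 to 42 bases before the start. TGACG lies at 60 bases before the start of Fosb and at 106 before that of Junb. The words were chosen after the sequences had been seen, and other AP-1-like words were not searched for. The serum response element known from Fos lies further upstream than the window reaches, and a matching word is not a measured binding site.

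The Jun probe set read 84.4 and 97.8 on null replicates 7 and 8, against 21.8 and 23.5 on control replicates 7 and 8. The null signals were close to each other and the lower of them was 3.59 times the higher control signal. The mean was 91.1 ± 9.48 in null liver and 22.7 ± 1.20 in control liver (SD, n = 2 each), a difference of 2.01 ± 0.23 on the log2 scale (SE of limma's fit over all probe sets). Leaving out any 1 array moved this difference to between 1.90 and 2.11.

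The other Jun proteins did not share this pattern. Junb, a weaker activator than Jun, read 234.5 and 124.2 on null replicates 7 and 8, against 99.7 and 150.5 on the control arrays. Only null replicate 7 lay above both controls, and null replicate 8 lay between them. A less bright Junb probe set read 121.2 and 96.8 in null liver, against 73.8 and 95.0 in control liver, so there both null signals exceeded the controls, null replicate 8 only just. The differences were 0.48 ± 0.33 and 0.37 ± 0.21 (log2, SE). Both Junb probe sets are of kinds (_r_at and _i_at) selected under relaxed rules by the manufacturer. Jund read 806.0 and 872.3 in null liver, against 805.9 and 760.1 in control liver, a difference of 0.10 ± 0.10, and null replicate 7 practically equalled control replicate 7.

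Fos showed the widest split between the null arrays of all 10 genes. Its brighter probe set read 260.7 on null replicate 7 and 7.7 on null replicate 8, against 9.4 and 19.7 on the control arrays. Null replicate 7 lay 13.2 times above the higher control signal, whereas null replicate 8 lay below both controls and close to 7.1, the level under which signals were treated as background. The difference between genotypes was therefore 1.72 ± 1.45 (log2, SE) with all arrays, 4.26 without null replicate 8 and -0.82 without null replicate 7. A second, dimmer Fos probe set followed the same order, at 14.8 and 1.6 in null liver against 2.3 and 7.7 in control liver, of which 1.6 and 2.3 are under the background level. Fosb, another AP-1 subunit induced with Fos, read 48.9 and 37.0 in null liver, against 15.4 and 37.8 in control liver. The groups overlapped, since control replicate 8 lay above null replicate 8, and the difference was 0.82 ± 0.47.

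Atf3 and Ier3 were higher on both null arrays, as Jun was. The brightest Atf3 probe set read 56.5 and 52.6 in null liver, against 16.5 and 21.3 in control liver, with a difference of 1.54 ± 0.30 (log2, SE). The lower null signal was 2.47 times the higher control signal. A second Atf3 probe set, too dim to be tested, read 12.8 and 22.0 in null liver, against 3.9 and 4.8 in control liver, which lie below the background level, and the remaining one lay below it on all arrays. The brightest is a _f_at probe set, a kind that can bind related transcripts. Ier3, a regulator of cell survival, read 36.7 and 27.8 in null liver, against 12.6 and 13.4 in control liver, with a difference of 1.30 ± 0.43. Its lower null signal was 2.07 times the higher control signal, and the null arrays differed from each other more than the control arrays did.

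Egr1 was raised on both null arrays but by unequal amounts. It read 325.6 and 112.8 on null replicates 7 and 8, against 47.7 and 69.3 on the control arrays. Null replicate 7 was 4.70 times and null replicate 8 was 1.63 times the higher control signal. The difference of 1.74 ± 0.47 became 2.50 without null replicate 8 and 0.97 without null replicate 7. A second Egr1 probe set, too dim to be tested, did not follow this order, at 6.6 and 2.1 in null liver against 7.3 and 11.6 in control liver.

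Ier2 and Myc had differences near 0, with unequal arrays behind them. Ier2 read 282.9 and 98.4 in null liver, against 160.1 and 176.4 in control liver, so that the null arrays lay on either side of the control arrays and averaged out at -0.01 ± 0.44. Without null replicate 8 the difference was 0.75, and without null replicate 7 it was -0.77. Myc read 33.2 and 23.8 in null liver, against 53.9 and 17.3 in control liver. Both null signals lay between the control signals, which were themselves 3.12-fold apart, and the difference was -0.12 ± 0.56.

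**Figure D1:**
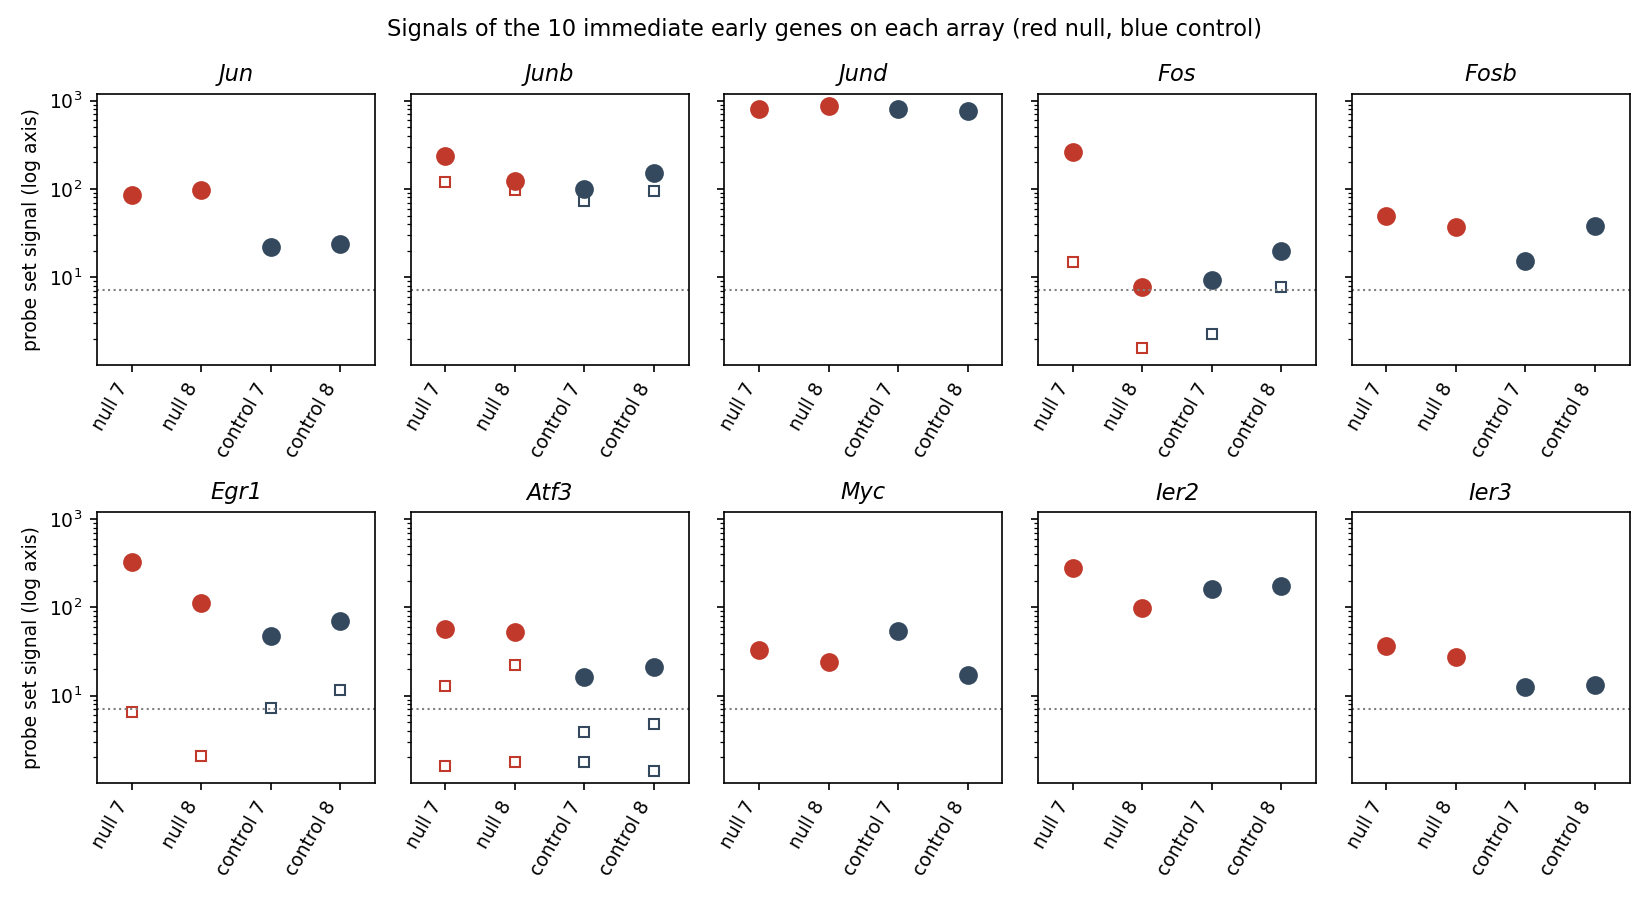
Probe set signals (log axis) of the 10 genes on null replicates 7 and 8 (red) and control replicates 7 and 8 (blue). Filled circles are the brightest probe set of a gene, open squares its other probe sets, and the dotted line is the background level of 7.1. Jun, Atf3 and Ier3 lie higher on both null arrays, Fos and Ier2 on null replicate 7.

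A gene was called higher on both null arrays where the lower null signal was at least 1.5 times the higher control signal, and higher on 1 where only the higher null signal was, after signals under 7.1 had been set to 7.1. By their brightest probe sets 4 genes were higher on both null arrays (Jun, Egr1, Atf3 and Ier3), 3 on null replicate 7 only (Junb, Fos and Ier2), 0 on null replicate 8 only, and 3 on neither (Jund, Fosb and Myc). Over all 7241 probe sets tested, 2.11% were higher on both null arrays, 2.29% on null replicate 7 only and 3.49% on null replicate 8 only. Junb (1.56), Ier2 (1.60) and, for both null arrays, Egr1 (1.63) lay just inside the margin, and Fosb lay just outside it at 1.29. With a margin of 2 times, 3 genes (Jun, Atf3 and Ier3) were higher on both null arrays and 2 (Fos and Egr1) on null replicate 7 only, against 0.691% and 0.773% of all probe sets tested. Without control replicate 8, Fosb joined the genes higher on both null arrays.

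Both null signals exceeded both control signals for 5 of the 10 genes (Jun, Jund, Egr1, Atf3 and Ier3), and 20.4% of all probe sets tested showed this order. Both null signals lay below both control signals for 0 of the 10, and for 23.4% of all probe sets tested. Of the 15 probe sets, 11 were bright enough to be tested, and all 10 genes had at least 1 of these. At an adjusted p under 0.05 in limma's fit over all probe sets, 1 of these 11 (Jun) was higher and 0 were lower in null than in control liver, against 0.304% higher and 0.0829% lower of all probe sets tested. Since the same contrast served to choose the genes, nothing is read from this count, and it was 0 without any 1 of the 4 arrays. The median difference of the 10 genes was 1.06 (log2) and that of all probe sets tested was -0.01. The choice of the genes by this contrast bears on their median too, and nothing is read from it.

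Most of the 10 genes were brighter on null replicate 7 than on null replicate 8. This held for 8 genes, all but Jun and Jund, whereas 46.9% of all probe sets tested were brighter on null replicate 7. Relative to the mean of the control arrays, the median of the 10 genes was 1.26 on null replicate 7 and 0.39 on null replicate 8 (log2), while the medians of all probe sets tested were -0.02 and 0.01. These medians of the 10 genes are a description too, since the genes were chosen with the signals known. Fos differed 33.9-fold between the null arrays, and only 5 of the 7241 probe sets tested had a larger excess on null replicate 7. Egr1 (2.89-fold) and Ier2 (2.88-fold) followed, with 87 and 90 probe sets above them.

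**Figure D2:**
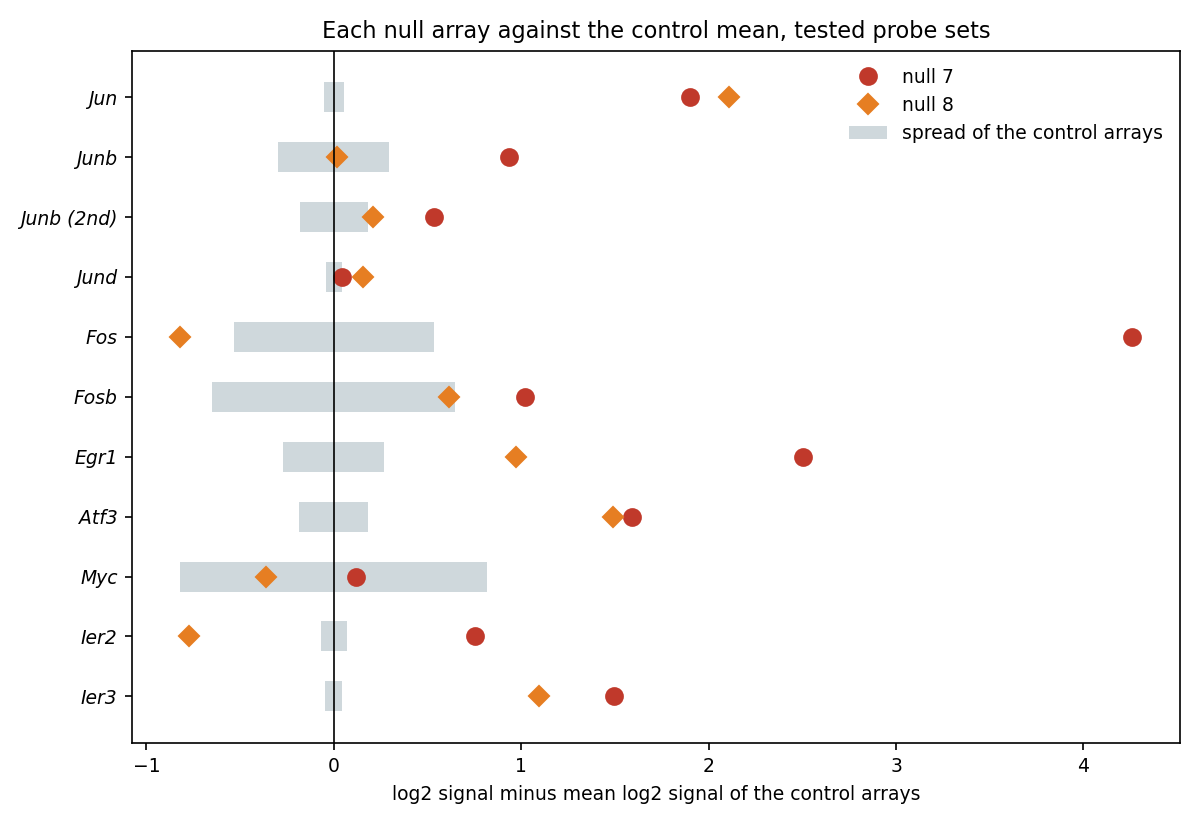
Log2 signal of null replicate 7 (circles) and null replicate 8 (diamonds) minus the mean of the control arrays for the 11 tested probe sets, with the grey bar spanning the control arrays and the less bright Junb probe set marked as the 2nd. For Jun and Atf3 the null arrays lie close together, at 1.90 and 2.11 and at 1.59 and 1.49, whereas for Fos they lie at 4.26 and -0.82.

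The 5 probe sets with a larger excess than Fos on null replicate 7 are annotated to amylase and trypsin genes, digestive enzymes of the exocrine pancreas, and were named after their values were seen. All 7 measured pancreatic acinar markers lay above both controls on null replicate 7, with a summed signal of 3032 on null replicate 7 and 241 on null replicate 8, against 274 and 388 on the control arrays. The pancreatic protease precursor Ctrb1 read 1307 and 78.7 in null liver, against 58.0 and 71.8 in control liver. These markers moved with Fos, Egr1, Ier2 and Junb on null replicate 7, and their part in those signals was not tested. On null replicate 8, where the summed acinar signal lay below that of both controls, Jun read 97.8, Atf3 52.6 and Ier3 27.8, against 84.4, 56.5 and 36.7 on null replicate 7. A part of acinar tissue in these signals was not tested either.

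**Figure D3:**
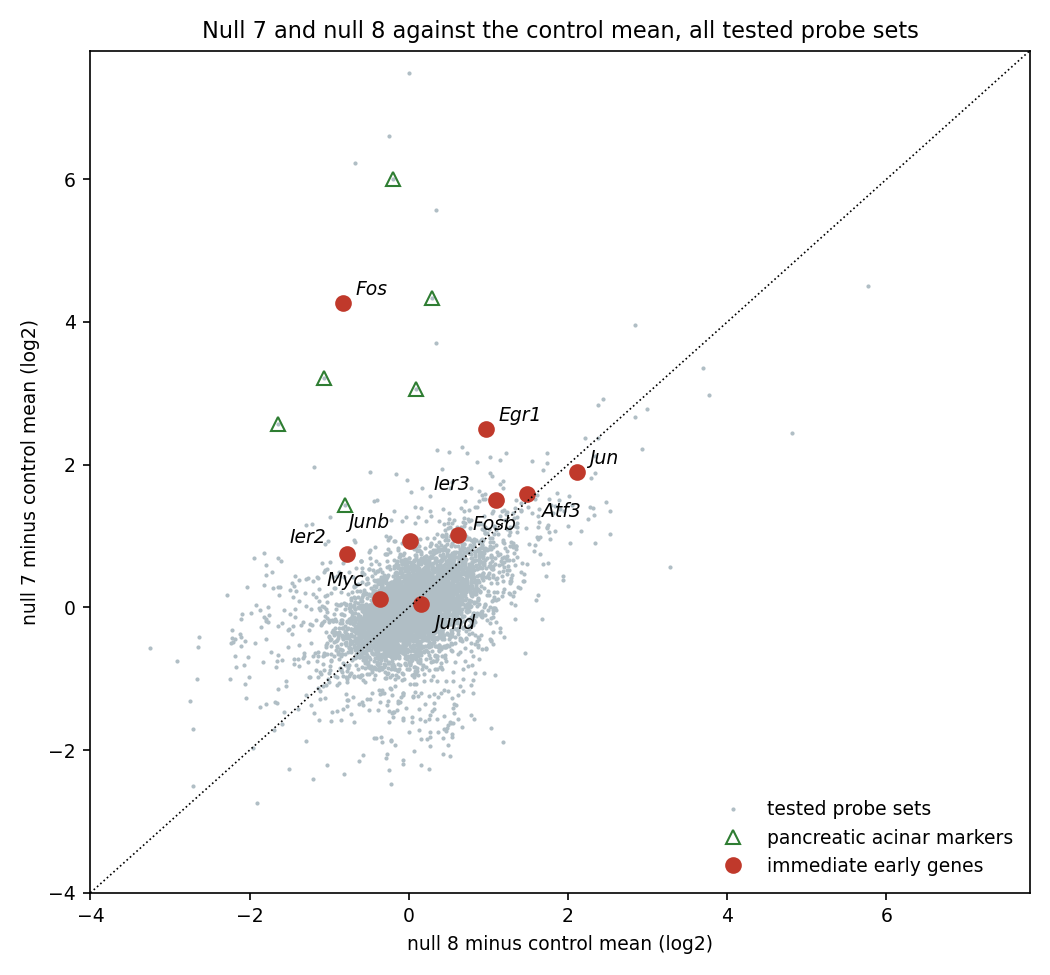
All tested probe sets by their log2 difference from the control mean on null replicate 8 (horizontal) and null replicate 7 (vertical), with the 10 genes as red circles, tested pancreatic acinar markers as green triangles and equal differences on the dotted line. Fos, at -0.82 and 4.26, lies among the acinar markers, and Jun, Atf3 and Ier3 lie near the dotted line.

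Other cell type markers and RNA measures were read beside the genes that were higher on both null arrays. The 11 measured macrophage and Kupffer cell markers summed to 2857 and 3065 in null liver, against 2259 and 2251 in control liver, and for 8 of the 11 both null signals lay above both control signals, an order shown by 20.4% of all probe sets tested. The 8 stellate cell and fibroblast markers summed to 1412 and 1665 in null liver, against 1078 and 1126 in control liver. Dcn, a matrix proteoglycan, made up most of this sum, at 1029 and 1184 in null liver against 838 and 844 in control liver, and 4 of the 8 markers had both null signals above both control signals. Endothelial markers summed to 1250 and 1168 in null liver, against 1052 and 1080 in control liver (3 of 8 markers in that order). Eng made up most of this sum, at 762.7 and 704.9 in null liver against 618.5 and 629.1 in control liver. T and B cell markers summed to 136.9 and 139.6 in null liver, against 92.3 and 96.1 in control liver (2 of 7 markers in that order, with Cd3d below the background level). Erythroid markers summed to 6102 and 5816 in null liver, against 7611 and 7221 in control liver, and the 3 cholangiocyte markers were dim. The neutrophil list was dim too, at 87.7 and 142 in null liver against 73.1 and 72.3 in control liver over 7 markers, 3 of them in that order, with Ngp below the background level on all arrays. The 7 hepatocyte markers summed to between 32786 and 34710 in null liver and between 36506 and 37497 in control liver, which bears out the tissue label. The ratio of 3′ to 5′ signal, a measure of RNA integrity, was 1.23 and 1.13 for Gapdh in null liver, against 1.28 in both control samples, and 1.56 and 1.37 for beta-actin in null liver, against 1.48 and 1.52 in control liver, where the genotypes overlapped. The 3′ probe set for 18S ribosomal RNA read 2374 and 1730 in null liver, against 4722 and 4365 in control liver. The part of these measures in the signals of Jun, Atf3, Ier3 and Egr1 was not tested.

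**Figure D4:**
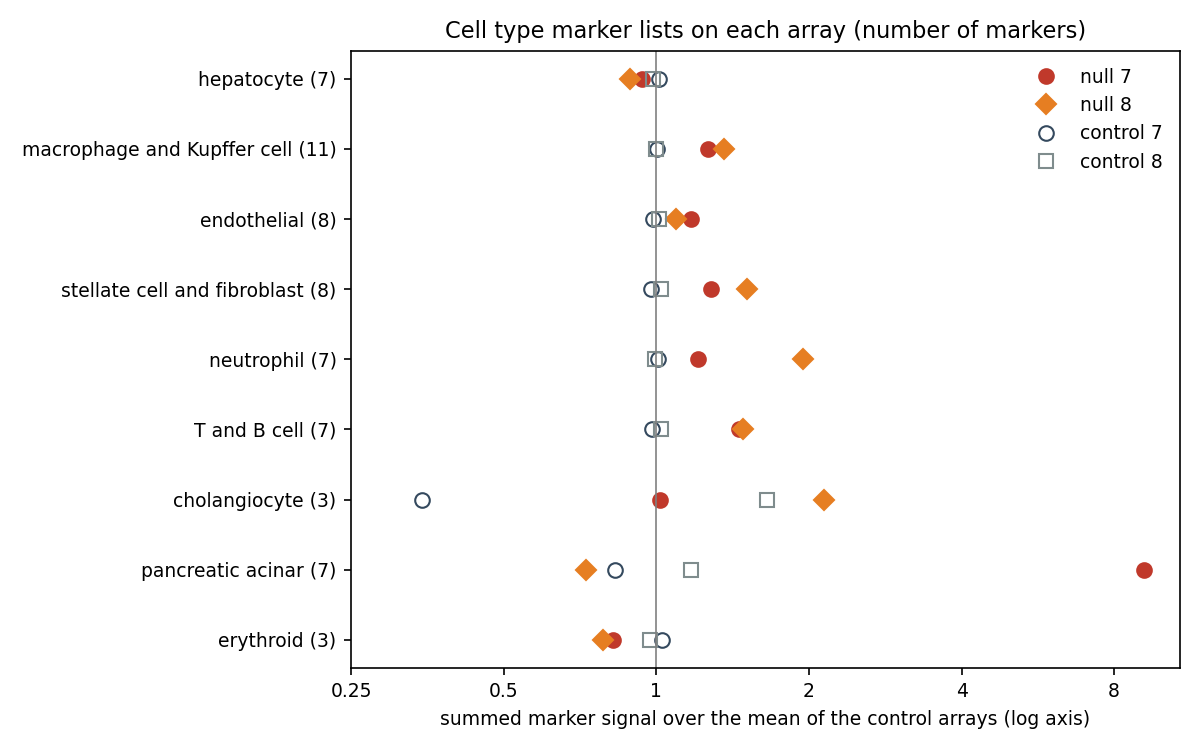
Summed signal of each cell type marker list on each array, divided by the mean of the control arrays (log axis), with null arrays filled and control arrays open. Null replicate 7 stands apart for pancreatic acinar markers, at 3032 against 274 and 388 in control liver. Both null arrays lie above both controls for macrophage, stellate cell, endothelial, neutrophil and T and B cell markers.

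Among the other genes of these pathways, tested in the same fit, only the metallothioneins passed. Of 28 tested immediate early and early response genes outside the 10, 0 passed in limma (3 higher and 3 lower at an unadjusted p under 0.05, where 6.16% of all probe sets tested were higher and 6.46% lower), 18 had a positive and 10 a negative difference, and the median was 0.19 (log2). Klf10, a TGF-beta-inducible zinc finger factor, read 88.4 and 62.8 in null liver, against 166.8 and 230.1 in control liver (-1.39 ± 0.24, adjusted p = 0.0803). Klf6, an early response factor of injured liver, read 61.6 and 89.2 in null liver, against 31.5 and 38.9 in control liver (1.08 ± 0.27, adjusted p = 0.168). The small GTPase Rhob was at 0.59 ± 0.16 (adjusted p = 0.208) and the kinase Pim1 at -0.44 ± 0.13 (adjusted p = 0.247).

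Some of these genes followed Fos, and were named after their values were seen. Btg2, an antiproliferative early gene, read 172.0 and 79.9 in null liver, against 73.3 and 78.2 in control liver. Dusp6, a phosphatase that switches off ERK, read 276.0 and 154.8 in null liver, against 153.1 and 153.4 in control liver. With Egr2 and Ccn1 they made up the 4 of 28 that were higher on null replicate 7 only, beside 2 higher on both null arrays (Klf6 and Ccn2) and 2 on null replicate 8 only (Rhob and Gadd45b). Of all probe sets tested these classes held 2.29%, 2.11% and 3.49%, in the same order. The same control arrays served here and in the counts of the 10 genes.

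Of 11 tested AP-1 partners and related zipper factors, 0 passed in limma (1 higher and 1 lower at an unadjusted p under 0.05), with a median of 0.21. Cebpd, an acute phase regulator, was at 0.77 ± 0.23 (adjusted p = 0.248), Crem, a cAMP-responsive factor, at 0.62 ± 0.27 (adjusted p = 0.42), Atf5 at -0.40 ± 0.15 (adjusted p = 0.341) and Atf2, a partner of Jun, at -0.33 ± 0.15 (adjusted p = 0.431). Ddit3, which like Atf3 belongs to the endoplasmic reticulum stress response, read 39.9 and 31.2 in null liver, against 14.5 and 26.1 in control liver (0.86 ± 0.42, adjusted p = 0.458). By the 1.5-fold margin Ddit3 was higher on null replicate 7 only. Atf4, of the same list, read 604.2 and 512.6 in null liver, against 680.3 and 544.0 in control liver (-0.13 ± 0.15, adjusted p = 0.769). Ddit3 and Atf4 were named beside Atf3 after their values were seen.

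The upstream signalling genes had differences of either sign. Of 17 tested receptor, adaptor and kinase genes of the MAP kinase cascade, 0 passed in limma (2 higher and 2 lower at an unadjusted p under 0.05), and the median was -0.07. The ternary complex factors of that list, Elk1, Elk3 and Elk4, were too dim to be tested, and SRF was not analysed here. Egfr, the growth factor receptor at the head of the cascade, was at -0.35 ± 0.11 (adjusted p = 0.268), with its other probe sets at -0.66 and 0.31, so they disagreed in sign. Map2k3, an activator of p38, was at -0.38 ± 0.13 (adjusted p = 0.305), with its other tested probe set at -0.06. Mapkapk2, a kinase downstream of p38, was at 0.47 ± 0.16 (adjusted p = 0.29) and Map3k3 at 0.63 ± 0.24 (adjusted p = 0.353).

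Of 10 tested genes known to respond to AP-1 or EGR1, 2 rose and 0 fell (3 higher and 0 lower at an unadjusted p under 0.05), with a median of 0.10, against 0.304% higher and 0.0829% lower of all probe sets tested at the adjusted threshold. They were Mt1 (733.7 and 735.8 in null liver, against 185.3 and 108.0 in control liver, adjusted p = 0.021) and Mt2 (739.1 and 849.6 in null liver, against 90.7 and 126.6 in control liver, adjusted p = 0.00437), metal-binding proteins that also answer to metals and glucocorticoids. The list was chosen with earlier results of these data known, so nothing is read from the count of 2 of 10. Mt1 no longer passed when null replicate 7 was left out (adjusted p = 0.0966) or when null replicate 8 was (adjusted p = 0.158), and Mt2 no longer passed without null replicate 8 (adjusted p = 0.0518). Hmox1, haem oxygenase, was at 0.56 ± 0.18 (adjusted p = 0.271), and Nab2, a corepressor induced by EGR1, at -0.20 ± 0.20 (adjusted p = 0.738). Pdgfa was at 0.21 ± 0.21 (adjusted p = 0.737) and Vegfa at -0.15 ± 0.17 (adjusted p = 0.771), both growth factors.

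Of 15 tested MYC partners and targets, 0 passed in limma (0 higher and 1 lower at an unadjusted p under 0.05), 4 had a positive and 11 a negative difference, and the median was -0.14. The polyamine enzyme Odc1 was at -0.41 ± 0.20 (adjusted p = 0.455), Ldha, of glycolysis, at -0.26 ± 0.08 (adjusted p = 0.268), the Max partner Mxd4 at -0.27 ± 0.12 (adjusted p = 0.445) and the spermidine synthase Srm at 0.42 ± 0.20 (adjusted p = 0.452).

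**Figure D5:**
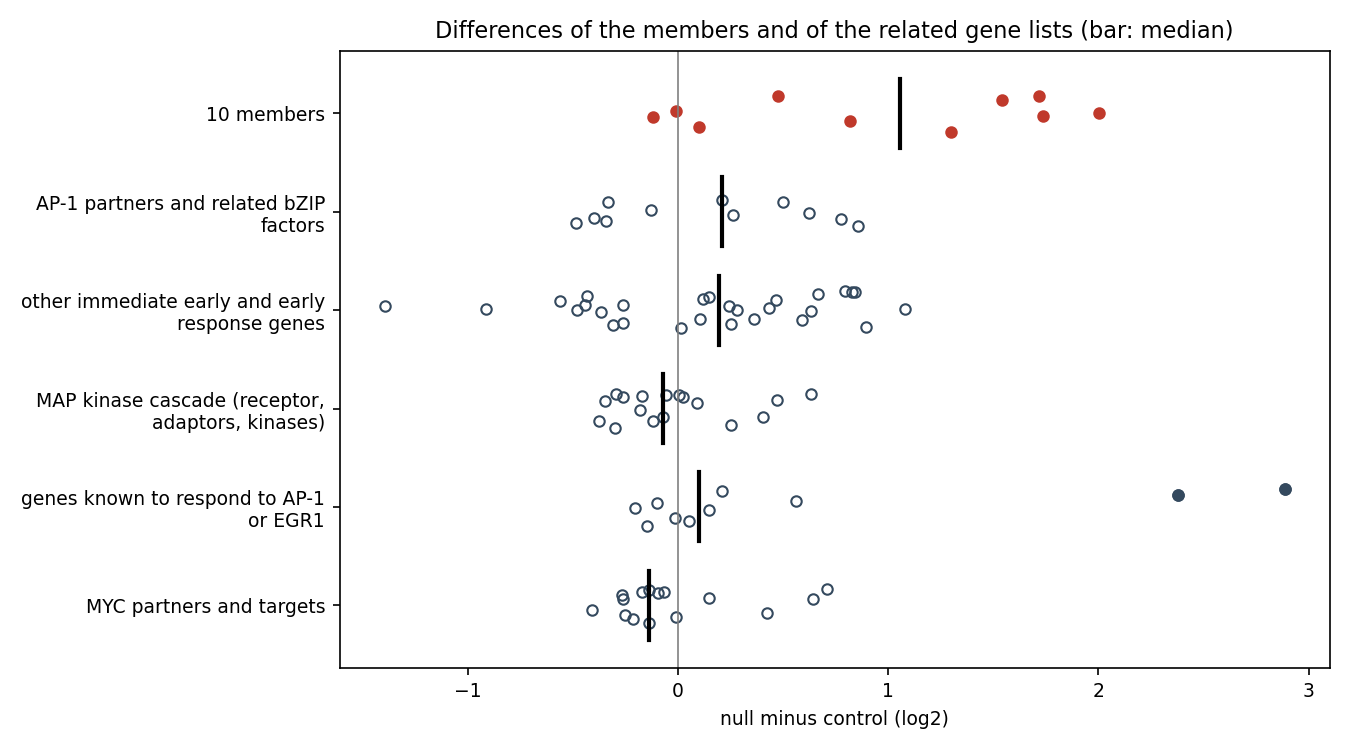
Null minus control difference (log2) of the 10 genes (red) and of the tested genes of each related list (blue circles, filled where the adjusted p was under 0.05), with a bar at the median. The medians of the related lists lie between -0.14 and 0.21, the median of the 10 genes at 1.06, and Mt1 and Mt2 are the filled circles. The 10 genes were chosen with this contrast known, so nothing is read from the height of their median.

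The signal pattern most like that of Jun over the 4 arrays was that of Lgals1, a galectin. Likeness was the Euclidean distance between log2 signals, each taken relative to its own control mean, over 6502 probe sets with 1 gene name. Lgals1 lay at a distance of 0.11, followed by Gstm3 (0.24), a glutathione transferase, Scd2 (0.50), a desaturase, Cyp7a1 (0.51), a bile acid enzyme, and Ccl2 (0.58), a chemokine. Lgals1 read 396.0 and 439.6 in null liver, against 93.5 and 109.6 in control liver. Ccl2 read 40.8 and 47.1 in null liver, against 4.4 and 12.3 in control liver, where 4.4 is under the background level. The distance rests on 4 arrays and says nothing of shared control.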

How the data were processed

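Each deposited value is the intensity of 1 probe set in linear units, which the authors obtained with Affymetrix GCOS from perfect-match and mismatch oligonucleotides and scaled by the total fluorescence of the chip, per the labels' protocols. The software version is not given in the sources used here. No further normalisation was applied. Signals under 7.1 (the 25th percentile) were set to 7.1, which understates changes of dim genes, and taken to log2. The 7241 probe sets with a mean above 16.8, the 40th percentile, were tested, without the 66 control probe sets of the manufacturer.

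Probe sets were named from a platform table updated through gene identifiers to GRCm38.p6 (10839 matched). Of the 12422 probe sets that are no controls, 10833 had 1 symbol, 396 had several and 1193 are unnamed here. A gene is represented by its brightest probe set unless stated. Probe sets ending in _f_at, _r_at, _s_at or _i_at can bind related transcripts.

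Genotypes were compared with limma 3.58.1 (R 4.3.3), a linear model with empirical Bayes moderation and an intensity trend, two-sided, adjusted by Benjamini-Hochberg over all probe sets tested. The steps were tested on simulated data, with noise drawn from the fitted spread and changes of known size put in. Of 1.5-fold changes 6.2% passed the threshold, of 2-fold changes 30.2%, of 4-fold changes 70.5% and of 8-fold changes 82%. A gene that did not pass is therefore not shown to be unchanged. With 2 arrays against 2, exact permutation gives no p below 0.333 and was not run. Precision is limited by the small number of arrays, and no batch appears in the labels.

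The members and the related lists were chosen with earlier results of these data known. Named genes were all members, the genes of each related list past the threshold with up to 4 others of smallest p, and the 5 nearest to Jun. Others are said to be named after their values were seen. Alternatives were other floors, quantile normalisation, no filter, no trend, log2(signal + 16), the replicate number as a block, averaged probe sets, a margin of 2 times and leaving out each array.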

Additional observations from a re-analysis of the deposited data

How the results depend on the processing

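With each array left out in turn, the whole-table count was 10 to 13 higher and 0 to 4 lower probe sets, against 22 and 6 with all arrays. The count of tested probe sets of the 10 genes past the threshold was 0 to 0, against 1 (Jun), and that of higher pathway genes 0 to 2, against 2. In limma 0 probe sets were higher and 0 lower with a floor at the 50th percentile (459 higher and 496 lower at an unadjusted p under 0.05), without the filter on dim probe sets (566 higher and 642 lower) or without an intensity trend (407 higher and 340 lower), and 0 pathway genes were then higher. With that floor 0 tested probe sets of the 10 genes passed. Quantile normalisation gave 30 higher and 12 lower probe sets. The cause of these shifts was not tested.

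Same-numbered arrays did not deviate together (correlation -0.03 over 7241 probe sets), and the labels do not say that a number marks a shared batch. With the replicate number as a block, 37 probe sets were higher and 15 lower, and the counts of the 10 genes (1) and of higher pathway genes (2) were as before.

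Among the differences of the 11 tested probe sets, those of Jun, Atf3 and Ier3 moved by more than the spread between replicates with the higher floor or log2(signal + 16). With the higher floor Jun was at 1.75, Atf3 at 1.01 and Ier3 at 0.24. With log2(signal + 16) Jun was at 1.47, Atf3 at 1.02 and Ier3 at 0.73. Over the alternatives and the 11 probe sets, 6 values changed sign. A block or the floor at the 10th percentile cannot alter these differences. Leaving out 1 array gave Fos -0.82 (without null replicate 7) to 4.26 and Myc -0.94 to 0.70, with 0.12 without null replicate 8 and 0.70 without control replicate 7. Ier2 ranged between -0.77 and 0.75, with 0.75 without null replicate 8 and 0.06 without control replicate 8, and was at 0.0066 with log2(signal + 16). The number of genes higher on both null arrays was 3 to 5 (3 with the higher floor, where Ier3 left, and with a margin of 2 times), and that higher on 1 null array 2 to 4. Leaving out a null array gives no such count.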

Other observations

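Some early response genes stood apart on a single control array, and others were lower on both null arrays. Those given here were chosen after their values were seen. Gadd45g, a growth arrest gene, read 38.3 and 34.1 in null liver, against 124.8 and 37.0 in control liver, so that control replicate 7 was the array that stood apart. Myc, described above, was also highest on control replicate 7. Nr4a1, an orphan nuclear receptor induced with Egr1, read 36.4 and 23.1 in null liver, against 34.3 and 5.6 in control liver, where 5.6 is under the background level. The feedback inhibitor Socs3 read 34.2 and 27.0 in null liver, against 49.0 and 36.6 in control liver, on 1 probe set. On another it was at 30.3 and 6.4 in null liver, against 47.5 and 41.8 in control liver, where 6.4 is under the background level. On both Socs3 probe sets both null signals lay below both control signals. Dusp1, a phosphatase of the MAP kinases known as an immediate early gene, read 195.5 and 133.7 in null liver, against 215.8 and 264.2 in control liver, so both null signals lay below both control signals. Of all probe sets tested, 23.4% showed that order.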
